A study of Homo sapiens with 20 samples.

Results

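The adenylate kinases are a family of phosphotransferases, and expression of 8 of their genes (AK1, AK3, AK4, AK5, AK6, AK7, AK8 and AK9) was looked for in 5 melanoma cell lines. The members were every row of the deposited expression values whose platform gene symbol is one of these 8. The rule found 5 of the 8 genes, AK1, AK3, AK4, AK5 and AK9, each with a single row among 18708 rows. AK6, AK7 and AK8 have no row of their own in the annotation and were not analysed here. The family was selected on the AK4 values of 1 comparison, in which AK4 was higher in the mutant line NME1-E5A than in the parent line. Those values are given as a description, with no test.

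The values come from 20 Affymetrix exon arrays (Human Exon 1.0 ST), 4 for each of 5 lines. Parent is WM793, an established line from a vertical growth phase melanoma, and it carries no added construct per the labels. The other 4 lines are WM793 overexpressing NME1, either wild-type (NME1-wild-type) or with a mutation that names the line (NME1-E5A, NME1-K12Q and NME1-P96S). The NME1 protein is a kinase of nucleoside diphosphates that suppresses metastasis, and the study asked which genes go with that function. All lines were grown for 3 days without a stated treatment. Each construct is represented by 1 line, no empty-vector line is among the samples, and a line has 4 technical replicate arrays. The p-values below therefore measure only the spread between arrays, and a line and its construct cannot be told apart.

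Adenylate kinases move a phosphate between adenine nucleotides, turning ATP and AMP into a pair of ADP molecules and back, and so set the AMP level that AMP-activated protein kinase senses. The members differ in where they work and in what they accept. AK1 serves the cytosol and AK5 is best known from brain. AK3 and AK4 sit in the mitochondrial matrix, where AK3 prefers GTP as the phosphate donor and AK4 has weak enzyme activity. AK4 is also known as a gene that hypoxia-inducible factors switch on. AK6 is nuclear and shares its locus with TAF9, AK7 and AK8 belong to motile cilia, and AK9 is a large nuclear member with several kinase domains. NME1 stands beside them in nucleotide metabolism, since it passes phosphate from ATP to other nucleoside diphosphates.

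The promoters of AK4 and AK5 are shown because hypoxia-inducible factors bind a core of the letters ACGTG or GCGTG, and AK4 is known as a target of these factors. AK5 is set beside it as a member that did not pass in any pair of lines. The 250 bases before the most upstream start listed in the RefSeq promoter table are given 5′ to 3′, with matches to either core on either strand in capitals. AK4 lies at chr1:65147302-65147551 and AK5 at chr1:77281769-77282018, both on the plus strand of RefSeq assembly GRCh38.p14 and directly before the RefSeq span of the gene.
AK4: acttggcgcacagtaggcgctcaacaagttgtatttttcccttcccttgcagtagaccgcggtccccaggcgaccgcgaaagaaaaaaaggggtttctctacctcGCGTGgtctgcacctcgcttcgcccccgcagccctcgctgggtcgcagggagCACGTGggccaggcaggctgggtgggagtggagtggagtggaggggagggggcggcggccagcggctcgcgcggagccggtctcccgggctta
AK5: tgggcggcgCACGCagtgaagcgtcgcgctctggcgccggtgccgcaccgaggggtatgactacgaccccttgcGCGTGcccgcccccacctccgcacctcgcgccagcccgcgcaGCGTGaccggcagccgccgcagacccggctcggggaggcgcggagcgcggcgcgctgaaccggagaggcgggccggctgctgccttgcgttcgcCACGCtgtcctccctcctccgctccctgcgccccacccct

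The AK4 window holds 3 matches, of which the 2 to ACGTG overlap on opposite strands and read CACGTG, while the third is GCGTG farther from the start. The AK5 window holds 4 matches, all to GCGTG. The AK6 and AK9 windows hold 1 match each, to ACGTG, AK7 holds 4 to GCGTG and AK8 holds 0. The window listed for AK1 lies inside the RefSeq span of the gene and that for AK3 reaches into it, so they are not described as promoters. Among the windows of 27305 genes in the table, 18.6% hold ACGTG, 31.9% hold GCGTG and 43.1% hold either. At least 3 matches, as in AK4, occur in 7.84% of these windows. A match describes letters only and does not show that a factor binds there. AK4 has 4 listed starts and AK5 has 2, of which 1 window each was read.

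Values below are log2 expression values as the authors normalised them with RMA, so a difference of 1 is a doubling. No detection call comes with them, and levels of different genes rest on different probes and are not set against each other. Pairs of arrays correlated with r between 0.910 and 0.995. The spread of the values within an array, as its interquartile range, ran from 2.19 to 3.16 with a median of 2.74. Parent replicate 2 at 2.19, NME1-P96S replicate 3 at 2.33 and NME1-K12Q replicate 2 at 2.46 were the narrowest. The row of NME1, which also lists the NME1-NME2 readthrough, had a mean of 9.53 ± 0.173 (SD, n = 4) in Parent and means between 9.75 and 9.81 in the 4 NME1 lines. It was 1.17-fold to 1.22-fold over Parent and did not pass the limma test in any of these 4 comparisons, with adjusted p-values from 0.85 to 1.00. The unadjusted limma p-values were 0.028 in NME1-wild-type, 0.045 in NME1-E5A, 0.074 in NME1-K12Q and 0.049 in NME1-P96S. Whether the probes of this row read the added constructs is not known. Of 8 melanocyte markers, 6 had a row: SOX10 lay between 9.20 and 9.66 over the 20 arrays and S100B between 7.76 and 9.26, while MITF lay between 5.51 and 5.95, PMEL between 4.38 and 5.42, TYRP1 between 3.71 and 4.90 and MLANA between 3.04 and 4.31. Without detection calls it is not known which of these are above background. Array means over the markers of other cell types overlapped among all 5 lines, from 5.42 to 6.11 for 5 of 6 fibroblast markers, 4.00 to 5.25 for 3 of 5 leukocyte markers, 4.79 to 5.54 for 4 endothelial markers and 4.07 to 5.10 for 4 of 5 keratinocyte markers.

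AK4 was highest in NME1-E5A. The 4 NME1-E5A arrays read 8.95, 8.91, 8.97 and 8.77, and the Parent arrays read 7.60, 6.54, 7.48 and 7.80. All NME1-E5A arrays lay above all Parent arrays, as they or their opposite did in 1.99 percent of features, and Parent replicate 2, the array of narrowest spread, was the lowest of the 20. The means were 8.90 ± 0.0885 (SD, n = 4) and 7.36 ± 0.557, a log2 difference of 1.55, or 2.92-fold. Without Parent replicate 2 the other 3 Parent arrays averaged 7.63 ± 0.161, and the difference was 1.28, or 2.42-fold.

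The means of the other 3 NME1 lines lay between. NME1-wild-type arrays read 8.11, 7.93, 7.98 and 8.02, a mean of 8.01 ± 0.0732 (SD, n = 4). The arrays of NME1-K12Q were at 7.94, 7.67, 7.84 and 8.09, on average 7.89 ± 0.178. Those of NME1-P96S were at 8.08, 8.21, 7.56 and 7.86, on average 7.93 ± 0.284. Each of these 12 arrays was below each NME1-E5A array, with 0.57 between the lowest NME1-E5A array and the highest of the 16 others. Such a separation of NME1-E5A from all other arrays was found in 65 of 18384 features, 0.354 percent. AK4 was 0.89 higher in NME1-E5A than in NME1-wild-type, and the differences of NME1-K12Q and NME1-P96S from NME1-E5A were -1.02 and -0.97. Non-overlapping arrays occur in 3.3, 3.54 and 3.01 percent of features in these 3 comparisons. These values come from the arrays that led to the choice of AK4, or from comparisons that share them, and no test is attached.

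Against Parent the same 3 lines had higher means, with NME1-wild-type at 0.66, NME1-K12Q at 0.53 and NME1-P96S at 0.57 over it. All 4 NME1-wild-type arrays lay above all Parent arrays, as they or their opposite did in 0.827 percent of features. In NME1-K12Q and NME1-P96S, 3 of 4 arrays did. Without Parent replicate 2 the differences were 0.38, 0.26 and 0.30. The 4 comparisons share the Parent arrays, so that 1 low Parent array enters all of them.

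AK4 could be tested among the 3 lines that its choice did not use, and it did not pass the test there. By limma with Benjamini-Hochberg adjustment over 18384 features, NME1-K12Q minus NME1-wild-type was -0.13 (95% interval -0.54 to 0.29, adjusted p = 1.00). NME1-P96S minus NME1-wild-type was -0.08 (95% interval -0.50 to 0.33, limma adjusted p = 0.999). NME1-P96S minus NME1-K12Q was 0.04 (95% interval -0.37 to 0.46, limma adjusted p = 1.00). The intervals bound the differences to within 0.54 either way and do not show that the lines are equal. The order of the AK4 means was NME1-E5A, NME1-wild-type, NME1-P96S, NME1-K12Q and Parent, and the 3 in the middle do not differ beyond the spread of their arrays.

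**Figure D1:**
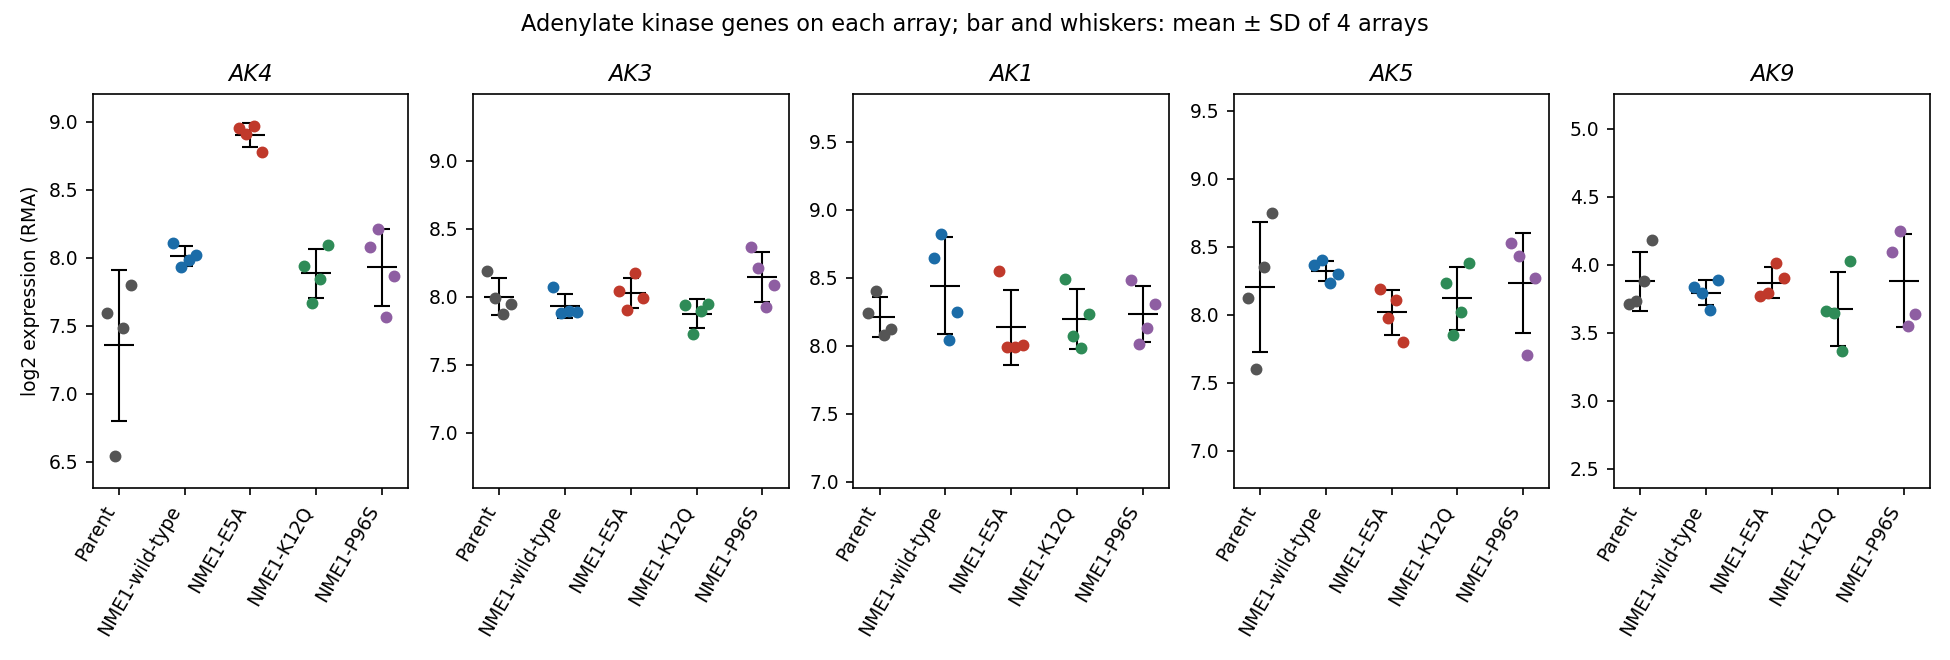
Log2 expression of the 5 measured adenylate kinase genes in each of 20 arrays (points), by line, with mean and SD of 4 arrays (bar and whiskers); each panel spans the same log2 range. AK4 in NME1-E5A (8.77 to 8.97) lies above all other AK4 values, and Parent replicate 2 is the single low AK4 point at 6.54.

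AK3, the other matrix member, had line means between 7.88 and 8.15. Its arrays read 8.19, 7.99, 7.88 and 7.95 in Parent, and 8.04, 7.90, 8.17 and 7.99 in NME1-E5A, where AK4 was highest. They read 8.07, 7.88, 7.89 and 7.89 in NME1-wild-type, 7.94, 7.73, 7.90 and 7.95 in NME1-K12Q, and 8.37, 8.21, 7.93 and 8.09 in NME1-P96S. The lines overlap throughout. NME1-E5A minus Parent was 0.03 for AK3, beside the 1.55 of AK4, a difference between genes that was not tested. The largest AK3 difference was NME1-P96S minus NME1-K12Q, 0.27 (95% interval 0.03 to 0.51), with an unadjusted p of 0.0283 and a limma adjusted p of 1.00.

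AK1, the cytosolic member, read 8.24, 8.41, 8.08 and 8.13 in Parent, 8.65, 8.83, 8.05 and 8.25 in NME1-wild-type, and in NME1-E5A 8.55 on replicate 1 and 7.99 to 8.01 on the others. It read 8.49, 8.07, 7.99 and 8.24 in NME1-K12Q, and 8.49, 8.01, 8.13 and 8.31 in NME1-P96S. The arrays of one line spread as widely as the lines themselves. The largest AK1 difference was NME1-E5A minus NME1-wild-type, -0.31 (95% interval -0.67 to 0.06).

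AK5, best known from brain, read 8.12, 7.60, 8.35 and 8.75 in Parent and 8.37, 8.40, 8.23 and 8.30 in NME1-wild-type. It read 8.18, 7.97, 8.10 and 7.80 in NME1-E5A, 8.23, 7.85, 8.02 and 8.38 in NME1-K12Q, and 8.52, 8.43, 7.70 and 8.27 in NME1-P96S. All NME1-E5A arrays lay below all NME1-wild-type arrays, the opposite order to AK4. The difference was -0.31 (95% interval -0.73 to 0.12) and did not pass the limma test, and 3.3 percent of features have non-overlapping arrays in that comparison.

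AK9 read 3.72, 3.74, 3.88 and 4.18 in Parent and 3.77, 3.79, 4.02 and 3.90 in NME1-E5A. It read 3.83, 3.79, 3.67 and 3.89 in NME1-wild-type, 3.66, 3.64, 3.37 and 4.03 in NME1-K12Q, and 4.10, 4.25, 3.55 and 3.64 in NME1-P96S. Over all 20 arrays it lay between 3.37 and 4.25, and its mean is below the 25th percentile of all features. Its largest difference was NME1-P96S minus NME1-K12Q, 0.21 (95% interval -0.13 to 0.55). Whether AK9 was detected at all is not known.

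Across AK1, AK3, AK5 and AK9, 0 of the 40 comparisons (4 genes in 10 pairs of lines) passed the limma test, which asks for a fold of 1.5 or more and an adjusted p below 0.05, and 1 had an unadjusted p under 0.05. Of all features, 0.0326 percent passed in NME1-wild-type minus Parent, 0.218 in NME1-E5A minus Parent, 0.00544 in NME1-K12Q minus Parent and 0.103 in NME1-P96S minus Parent. Against NME1-wild-type the shares were 0.207 percent for NME1-E5A, 0.0381 for NME1-K12Q and 0.201 for NME1-P96S. They were 0.169 percent in NME1-K12Q minus NME1-E5A, 0.239 in NME1-P96S minus NME1-E5A and 0.277 in NME1-P96S minus NME1-K12Q. A count of 0 in 4 genes is near that background. The SD of the 5 line means was 0.116 for AK1, 0.102 for AK3, 0.116 for AK5 and 0.0891 for AK9, where the median feature has 0.0938.

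**Figure D2:**
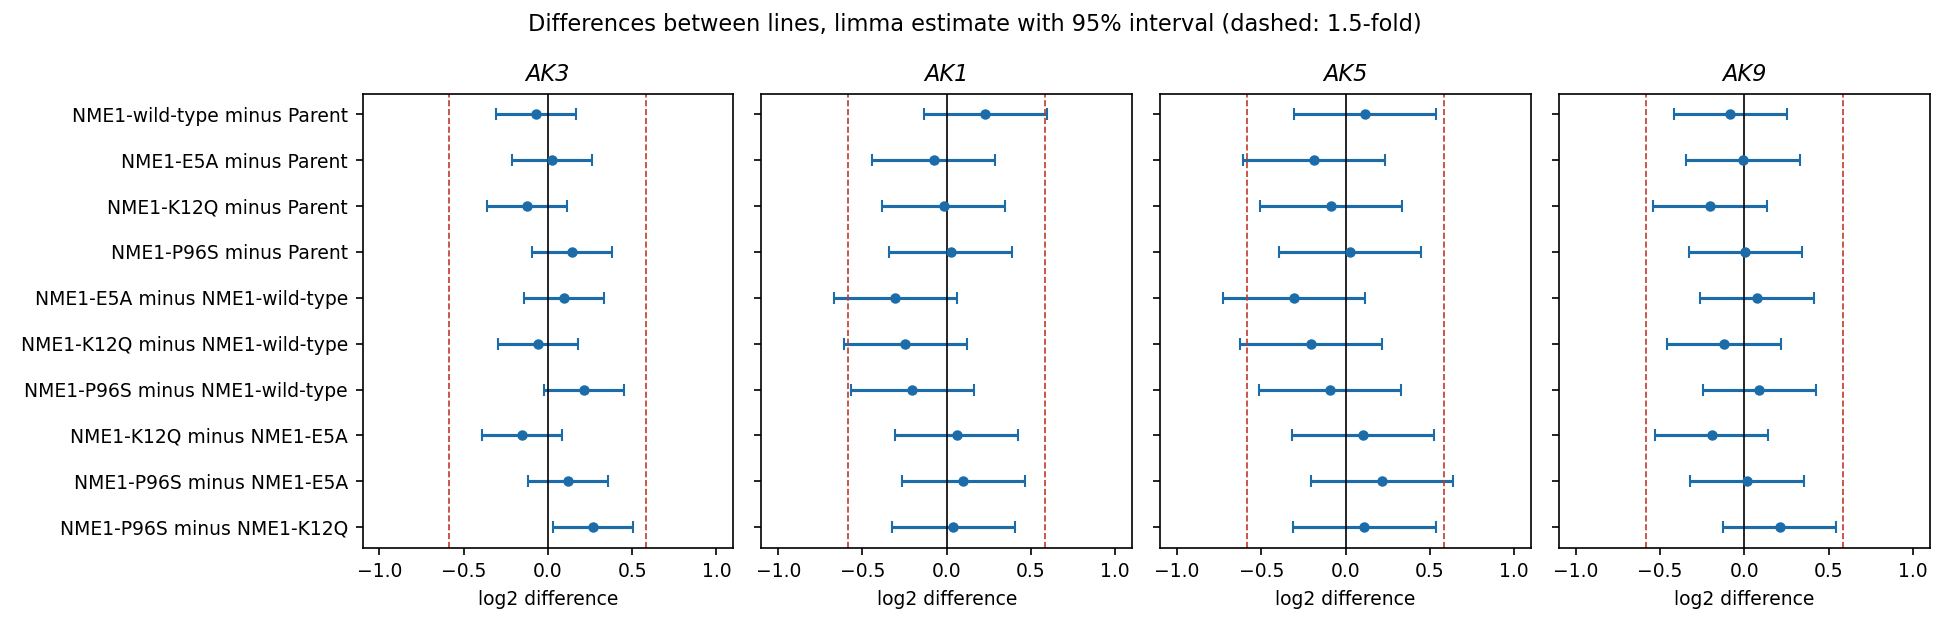
Log2 differences of AK3, AK1, AK5 and AK9 in all 10 pairs of lines, as limma estimates (points) with 95% intervals (whiskers); dashed lines mark 1.5-fold. All estimates lie between -0.31 and 0.27, inside the dashed lines.

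AK5 and AK4 had low values on the same arrays. In Parent replicate 2, AK4 was -0.81 and AK5 -0.60 from its line mean. In NME1-P96S replicate 3 the deviations were -0.37 and -0.53, and in NME1-K12Q replicate 2 they were -0.22 and -0.27. These are the 3 arrays of narrowest spread. Over the 20 arrays the deviations from the line means of AK5 and AK4 correlated with r = 0.89. The values themselves correlated with r = 0.18, as a description of 20 arrays that differ in spread. With AK4, the deviations of AK9 had r = 0.58, of AK3 0.40 and of AK1 -0.10. The r of such deviations over all features is not given here. CMPK1, a pyrimidine monophosphate kinase, was also low on these 3 arrays, at 7.69, 7.84 and 7.84. AK1 was 0.19 above its line mean in Parent replicate 2. The NME1-E5A arrays had interquartile ranges from 2.71 to 2.80. In that range, AK4 read 7.94 and 7.84 on NME1-K12Q replicates 1 and 3 and 7.98 on NME1-wild-type replicate 3. The part of array spread in the member levels was not tested. Without Parent replicate 2, 69 features (0.375 percent) had all NME1-E5A arrays above all others.

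**Figure D3:**
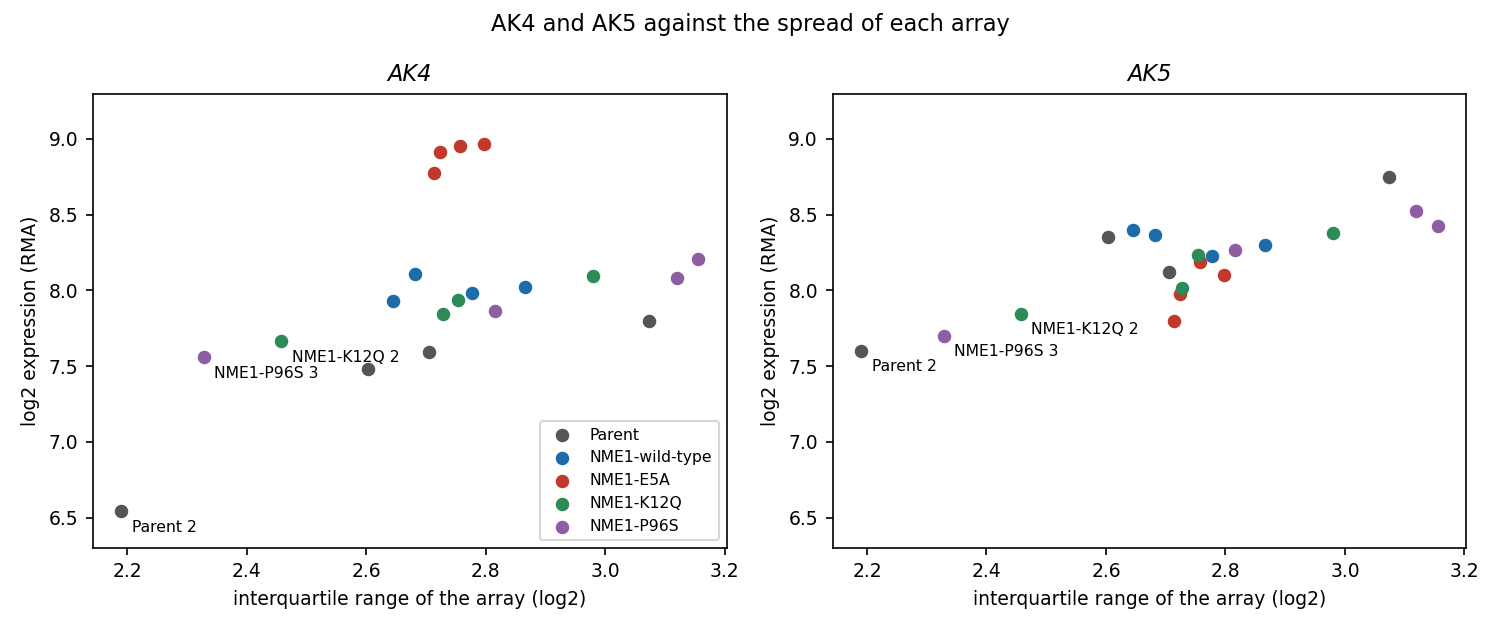
AK4 (left) and AK5 (right) in each of 20 arrays against the interquartile range of the array, coloured by line; the 3 arrays of narrowest spread are named. The NME1-E5A arrays have interquartile ranges from 2.71 to 2.80 and AK4 values from 8.77 to 8.97, and both genes have low values at the narrow end.

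The genes around AK4 on chromosome 1 differed less from Parent in NME1-E5A than AK4 did. AK4 was chosen for its value in that comparison, so this order follows largely from the choice and is a description. The 5 measured genes before it in RefSeq order are ROR1, UBE2U, CACHD1, RAVER2 and JAK1, and the 5 after it are DNAJC6, PDE4B, SGIP1, DYNLT5 and INSL5. Their NME1-E5A minus Parent differences lay between -0.23 (UBE2U) and 0.11 (JAK1, a cytokine receptor kinase). In NME1-P96S minus Parent they lay between -0.28 (ROR1) and 0.43 (CACHD1). Of these 10 genes, 0 passed the limma test in any of the 10 comparisons, where 0.707 percent of all features passed in at least 1. All NME1-E5A arrays lay above all others in 0 of the 10, beside 0.354 percent of all features. A count of 0 in 10 genes is near both shares. TAF9, the transcription factor subunit that shares the AK6 locus, had means of 6.49 in Parent, 6.91 in NME1-wild-type, 6.51 in NME1-E5A, 6.44 in NME1-K12Q and 6.40 in NME1-P96S, and it did not pass in any pair.

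**Figure D4:**
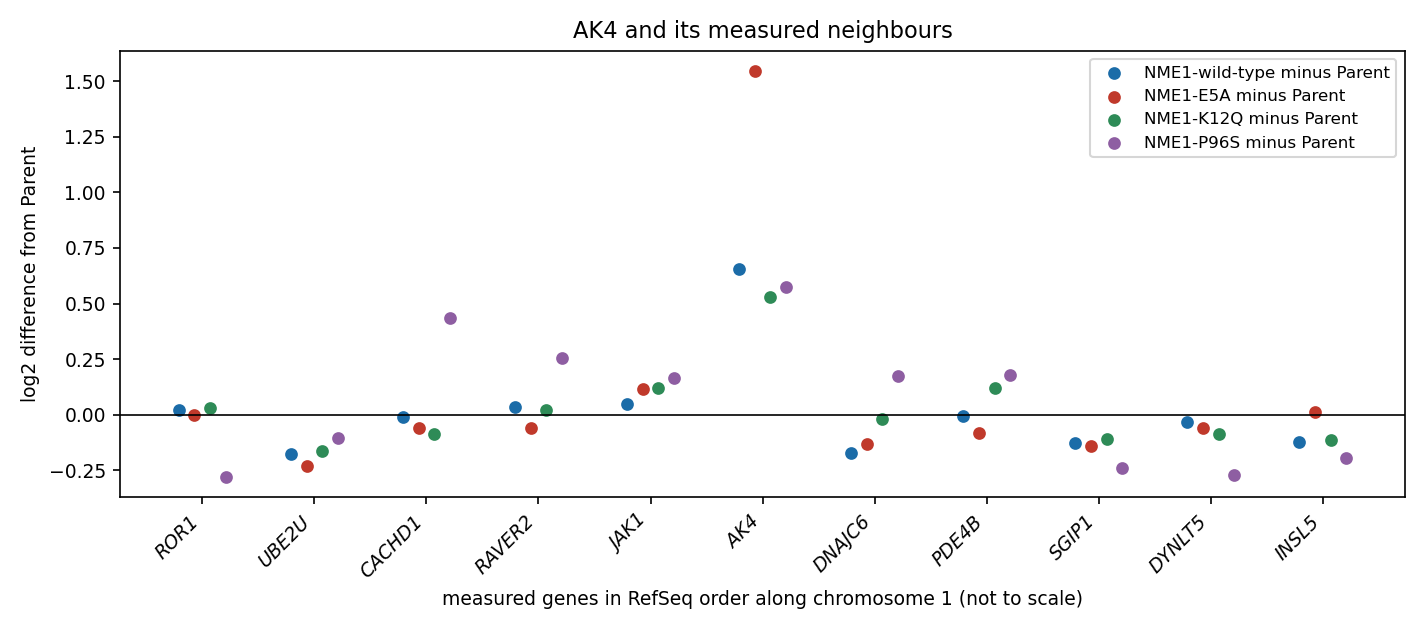
Log2 difference from Parent in the 4 NME1 lines (points) for AK4 and the 5 measured genes on each side of it, in RefSeq order along chromosome 1 and not to scale. AK4 in NME1-E5A is at 1.55, while the neighbours lie between -0.23 and 0.11 in that line.

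The 8 genes most like AK4 were taken by the highest Pearson r over the 20 arrays, among features with a single symbol. They were PDK1 (r = 0.96), NRN1 (0.92), MME (0.91), BNIP3L (0.91), VLDLR (0.91), PTTG1IP (0.89), ARRDC3 (0.89) and PLOD2 (0.88), where the median feature has -0.20 and the 95th percentile is 0.53. PDK1 inhibits pyruvate dehydrogenase, BNIP3L is a receptor for mitochondrial removal, and PLOD2 is a lysyl hydroxylase of collagen. All but PLOD2 had all NME1-E5A arrays above all others, as 0.354 percent of all features did. These genes were chosen for likeness to AK4 on the same arrays, so that order follows largely from the choice. The arrays share lines and array spread, so r here is a description.

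PDK1 read 9.29, 9.54, 9.62 and 9.24 in NME1-E5A and 8.08, 7.30, 8.37 and 8.65 in Parent. The lowest of its 20 values was again Parent replicate 2. Its line means tracked those of AK4 with r = 0.98 over 5 lines, its deviations from the line means with r = 0.91, and without Parent replicate 2 its r over the other 19 arrays was 0.94. The differences from Parent were 1.32 in NME1-E5A, 0.44 in NME1-wild-type, 0.41 in NME1-K12Q and 0.61 in NME1-P96S, beside 1.55, 0.66, 0.53 and 0.57 for AK4. NRN1, a neuronal surface protein, had 1.35 in NME1-E5A and 0.15 to 0.33 in the other 3 lines. VLDLR, a lipoprotein receptor, had 1.17 and 0.13 to 0.31. Without Parent replicate 2, 4 of the 8 names stayed among the 8 most like AK4.

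**Figure D5:**
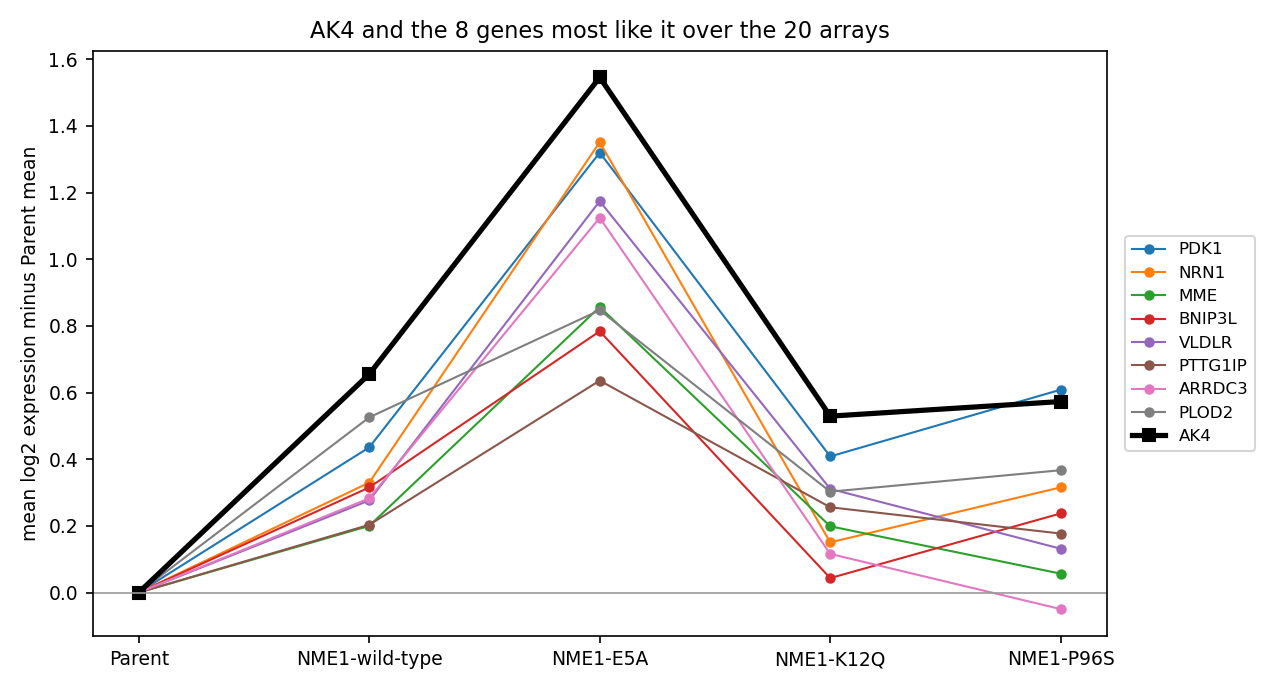
Mean log2 expression minus the Parent mean in each line for AK4 (thick black) and the 8 genes with the highest Pearson r to it over 20 arrays; segments only join the points of a gene. Every gene peaks in NME1-E5A, from 0.64 (PTTG1IP) to 1.55 (AK4). The 8 genes were chosen for likeness to AK4 on these same arrays.

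The RefSeq promoter table holds 7 of these 8 genes, all but BNIP3L. The windows of NRN1 and MME reach into the RefSeq span of the gene and are not described. Of the others, VLDLR holds 5 matches to ACGTG or GCGTG, PLOD2 holds 3 and PTTG1IP holds 2, while PDK1 and ARRDC3 hold 0.

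Hypoxia response and glycolysis genes were counted because AK4 belongs to the former by its known regulation. Rows of their own were found for 19 of 22 and 19 of 20 listed genes, 36 genes together. In NME1-E5A minus Parent, the comparison that chose AK4, 6 of the 36 passed, all higher, where 0.218 percent of all features passed. Nothing is read from that count. In the comparisons that share the NME1-E5A arrays, 2 passed as higher than in NME1-wild-type (0.207 percent of all features), 3 were lower in NME1-K12Q (0.169 percent) and 2 were lower in NME1-P96S (0.239 percent). Over the 29 alternatives run, these counts ranged from 1 to 8, from 2 to 7 and from 1 to 8. The highest came with the array interquartile range as a covariate. The 1 for NME1-wild-type came with single arrays of each of the 5 lines left out, the 2 for NME1-K12Q with any single NME1-E5A or NME1-K12Q array left out, and the 1 in NME1-P96S came with only the 8 arrays compared or without NME1-E5A replicate 3. In NME1-P96S minus NME1-wild-type 0 of the 36 passed, beside 0.201 percent. These 36 genes were listed with earlier results known, so the counts are no independent evidence of a direction.

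ENO2, a glycolytic enolase, read 8.98, 8.90, 8.85 and 9.06 in NME1-E5A and 7.69, 7.92, 7.46 and 7.52 in Parent, and between 7.68 and 8.13 on the 12 arrays of the other lines. As for AK4, all NME1-E5A arrays lay above the 16 others, an order that 0.354 percent of all features show. The same held for ALDOC, a glycolytic aldolase. It read 7.70, 7.51, 7.42 and 7.56 in NME1-E5A, and 7.28, 6.81, 6.73 and 6.89 in NME1-wild-type. Both genes are named because they passed in at least 1 pair of lines, so this order is a description only. The Parent arrays of ALDOC were at 6.07, 6.44, 6.07 and 5.96. Its NME1-P96S arrays were at 7.27, 7.02, 6.98 and 7.15, and its NME1-K12Q arrays at 5.94, 6.04, 5.74 and 5.80. In lines that did not choose AK4, ALDOC was lower in NME1-K12Q than in NME1-wild-type by a log2 difference of -1.05 (2.07-fold, limma adjusted p = 0.000915), the only one of the 36 that passed in that comparison, where 0.0381 percent of all features did. AK4 differed by -0.13 between these lines. ALDOC was also higher in NME1-P96S than in NME1-K12Q by 1.23 (limma adjusted p = 0.000145), again the only one of the 36, where AK4 differed by 0.04. The RNA of HIF1A, the hypoxia-inducible factor subunit, did not pass, with 0.09 in NME1-E5A minus Parent. These arrays do not measure its protein.

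Enzymes and carriers that share substrates with the adenylate kinases were counted as well. Lists covered the other nucleoside monophosphate kinases (4 of 4 measured), AMP-activated protein kinase (9 of 9), AMP removal and adenosine salvage (16 of 17), creatine kinases (3 of 5), mitochondrial adenine nucleotide carriers (11 of 12) and mitochondrial GTP makers and users (4 of 5). Of these 47 genes, 0 passed in 9 of the 10 pairs of lines and 1 passed in NME1-P96S minus NME1-K12Q. That is 0.213 percent of 470 tests, beside 0.149 percent over all features and comparisons, a share near the background. An unadjusted p under 0.05 was found in 14 of the 470 (2.98 percent), beside 2.61 percent over all features. In NME1-E5A minus Parent their differences lay between -0.22 and 0.41, with a median of -0.00013 beside -0.04 for all features.

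The 1 gene was CKB, the cytosolic creatine kinase, which buffers ATP by another phosphate donor. CKB read 7.05, 7.02, 7.25 and 7.27 in NME1-P96S, against 6.44, 6.65, 6.39 and 6.54 in NME1-K12Q, without overlap, as in 2.22 percent of features. The means were 7.15 ± 0.129 (SD, n = 4) and 6.51 ± 0.115, a log2 difference of 0.64 or 1.56-fold (limma adjusted p = 0.0195), where 0.277 percent of all features passed. The call was lost without NME1-K12Q replicate 1, 3 or 4 and without NME1-P96S replicate 4. Parent lay between, at a mean of 6.81. The CKB differences from Parent were 0.33 in NME1-P96S and -0.31 in NME1-K12Q, and neither passed.

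Genes with the highest means in these lists that did not pass in any pair are given by their NME1-E5A minus Parent difference. GUK1, the guanylate kinase, had 0.04 and CMPK1, the pyrimidine monophosphate kinase, had 0.10. NT5E, the surface enzyme that turns AMP into adenosine, had 0.19 and NT5C2, a cytosolic nucleotidase, had 0.22. SLC25A5, an ADP/ATP carrier of the inner mitochondrial membrane, had -0.22, and VDAC3 of the same list had 0.07. SUCLG2 and SUCLG1, of the mitochondrial GTP list, had 0.12 and -0.01. The creatine kinases CKM and CKMT2 had -0.12 and -0.18. PRKAB1 and PRKAG1, subunits of AMP-activated protein kinase, had 0.05 and -0.10.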

How the data were processed

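The authors normalised 20 exon arrays with RMA in R, per the labels and design text, and deposited log2 values. The submitters' processing notes also name limma. For versions, genome build and annotation release, the entry is "not given in the sources used here". Line and replicate number came from the titles. The platform annotation lists 17608 of 18708 rows, 14735 with 1 symbol and 2873 with several, and 1100 are not listed. One row per symbol was kept (highest mean), leaving out 324 rows and giving 18384 features. A limma model (3.58.1, R 4.3.3; lmFit and eBayes, 15 residual degrees of freedom) with a mean per line was fitted on all 20 arrays. All 10 pairs of lines were tested two-sided with Benjamini-Hochberg adjustment over all features, and a feature passed with a fold of 1.5 or more and an adjusted p below 0.05. The script was tested on simulated data. Arrays have no sequencing depth, so their number limits the precision.

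Members, gene lists and tests were chosen with earlier results of these data known. Genes to be named were the members, the 8 features most like AK4, 5 measured neighbours on each side of AK4, TAF9 and NME1. Up to 4 passing and 2 highest non-passing genes per list were also eligible, and not all of them are given. Promoters and gene order are from RefSeq (GRCh38.p14). Alternatives were quantile normalisation, median centring, array spread as a covariate, a replicate block, only the 8 arrays compared, a filter on low values, all rows kept, no minimum fold, leaving out the 3 narrowest arrays, and leaving out each array.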

Additional observations from a re-analysis of the deposited data

Results flagged for a closer look

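Of 25 groups of 4 arrays (5 genes in 5 lines), 2 had a single array far from the other 3 by Dixon's ratio of gap to range, and chance gives about 1 in 20 groups. AK1 in NME1-E5A had a ratio of 0.974, with replicate 1 at 8.55 above the other 3. AK3 in NME1-wild-type had a ratio of 0.93, with replicate 1 at 8.07 above the other 3. Replicate 1 was above the line mean in 5 of 5 lines for AK1 and in 5 of 5 lines for AK3. The share of all features with that pattern is not given here. Over all features, the deviations of replicate 1 arrays correlated between lines in all 10 pairs, with r from 0.11 to 0.60, so the pattern cannot be read as particular to these genes.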

How the results depend on the processing

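AK1, AK3, AK5 and AK9 had 0 calls in all 10 comparisons under every alternative run (AK9 is left out by the filter on low values). The AK4 difference NME1-E5A minus Parent stayed between 1.28 and 1.69 when single arrays were left out. AK4 in NME1-P96S minus NME1-K12Q turned to -0.081 with array spread as a covariate and ranged from -0.049 to 0.17 with single arrays left out, among them -0.029 and -0.007. In NME1-P96S minus NME1-wild-type it turned to 0.041 without the 3 narrowest arrays and ranged from -0.18 to 0.041, and it passed in none of these.

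Hypoxia and glycolysis genes called in NME1-E5A minus NME1-wild-type, NME1-K12Q minus NME1-E5A and NME1-P96S minus NME1-E5A numbered 2, 3 and 2. They numbered 6, 5 and 4 after quantile normalisation, 8, 7 and 8 with the spread covariate, 6, 5 and 5 without the 3 narrowest arrays, and 5, 6 and 1 with only the 8 arrays compared. With single arrays left out they ranged from 1 to 4, 2 to 5 and 1 to 4. With only the 8 arrays, 0 were called in NME1-wild-type minus Parent, 3 in NME1-E5A minus Parent and 0 in NME1-P96S minus Parent, and CKB was not called (0). Leaving out single arrays gave 0 to 1 for NME1-wild-type minus Parent, where 1 (ALDOC) was called on all arrays, and 0 to 1 for the nucleotide genes in NME1-P96S minus NME1-K12Q. Of the 8 genes most like AK4, 5 stayed after quantile normalisation, 8 after median centring and 4 without Parent replicate 2, the last chosen after seeing the data. The causes were not tested.

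Replicate numbers did not meet the rule for pairing, since 25 and not all of 40 equal-numbered pairs had deviations correlated above 0.1. As a hint from the data, the median r was 0.24 for equal and -0.05 for unequal numbers, all 10 pairs of replicate 1 were above 0.1, and 11 of 20 arrays correlated best with their own number. With the replicate block the counts were 4, 5 and 5, and no adenylate kinase among AK1, AK3, AK5 and AK9 was called.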
